A study of Mus musculus with 6 samples.

Results

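The genes described here mark the oligodendrocyte lineage, the glia that wrap axons in myelin, as they were read in sorted microglia. They were chosen by symbol, and all 9 were found among the 15912 genes of the deposited table: the 5 myelin genes Mbp, Mobp, Cnp, Cryab and Mal, and the 4 precursor genes Olig1, Olig2, Pdgfra and Cspg5. The study sorted hippocampal microglia of male C57BL/6 mice by their load of lipid droplets, the cell's stores of neutral lipid. Mice were 3 months old, and all had received lipopolysaccharide (LPS, an inflammatory part of bacterial walls) into the peritoneum at 1 mg/kg for 4 days, with tissue taken 24 h after the last injection. BODIPY, a dye of neutral lipids, parted the cells into a BODIPY-high gate (lipid-droplet rich) and a BODIPY-low gate, with 3 libraries each.

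Each sample pooled the hippocampi of 2 mice. From each, about 10000 live CD11b+CD45lo cells, the usual microglial phenotype, were sorted after a Percoll step that removes myelin, so no oligodendrocyte was sought by this gate. Both gates came from mice given LPS, and libraries of mice without it are not analysed here. The comparison asks whether BODIPY-high microglia carry more transcripts of the lineage than BODIPY-low microglia, and whether the myelin and the precursor genes differ in this.

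Oligodendrocytes arise from precursors that depend on platelet-derived growth factor and carry its alpha receptor. The transcription factors Olig1 and Olig2 are present in precursors and in mature cells, and during differentiation the genes of the myelin membrane are switched on to very high levels. In the hippocampus both stages persist in the adult. Microglia clear myelin debris, and some genes known as myelin genes are also read outside the lineage: Mbp has golli transcripts in immune cells, and the deposited table does not part transcripts of a gene.

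The libraries held 34899413 to 39220494 reads, recovered as whole numbers from the deposited normalized counts (gene counts scaled by the authors with 1 size factor per library). A count of 0 allows up to 3 reads, or 2.76 to 3.29 normalized counts, and this floor and all read intervals cover counting error only. Microglial identity genes summed to 1960520 to 2674400 normalized counts in BODIPY-high libraries and to 2514210 to 2932370 in BODIPY-low libraries. Of these 12 genes, 11 had a negative log2 change (median -0.213), and the ratio of the mean sums, BODIPY-high over BODIPY-low, was 0.885. None of the 12 passed the test in either direction with limma (1 lower at an unadjusted p under 0.05, and 0 called with edgeR). Olfml3 was called lower with DESeq2 (adjusted p = 0.0133) and with the library number as a block (limma adjusted p = 0.0111). Of all 12767 genes tested, 259 (2.03%) were higher and 3 (0.0235%) lower in BODIPY-high libraries at an adjusted p under 0.05 (limma, Benjamini-Hochberg over all genes tested), and the median log2 change was -0.0043.

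Of the 9 genes, 3 rose in BODIPY-high libraries: Cryab among the myelin genes, and Olig1 and Pdgfra among the precursor genes. Mbp, Mobp, Cnp, Mal and Cspg5 had higher means in BODIPY-high libraries but did not pass, and Olig2 had too few reads to be tested. By the same threshold edgeR called Cryab and Pdgfra (1.74% of all genes were called higher with it), DESeq2 called these, Olig1, Mobp and Cspg5 (3.63%), and limma with the library number as a block called Cryab, Olig1, Pdgfra and Mobp (4.37%). Of the 8 tested genes, 6 had every BODIPY-high value above every BODIPY-low value, against 10.4% of all genes tested. Counts over these genes are descriptions only, because 4 of the 8 had fewer than 3 BODIPY-low libraries at 10 normalized counts and so entered the test through the BODIPY-high gate: Olig1 and Pdgfra with 0 such BODIPY-low libraries, Cspg5 with 1 and Mobp with 2. In bulk libraries such as these, fewer cells of a type and less RNA per cell cannot be told apart.

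**Figure D1:**
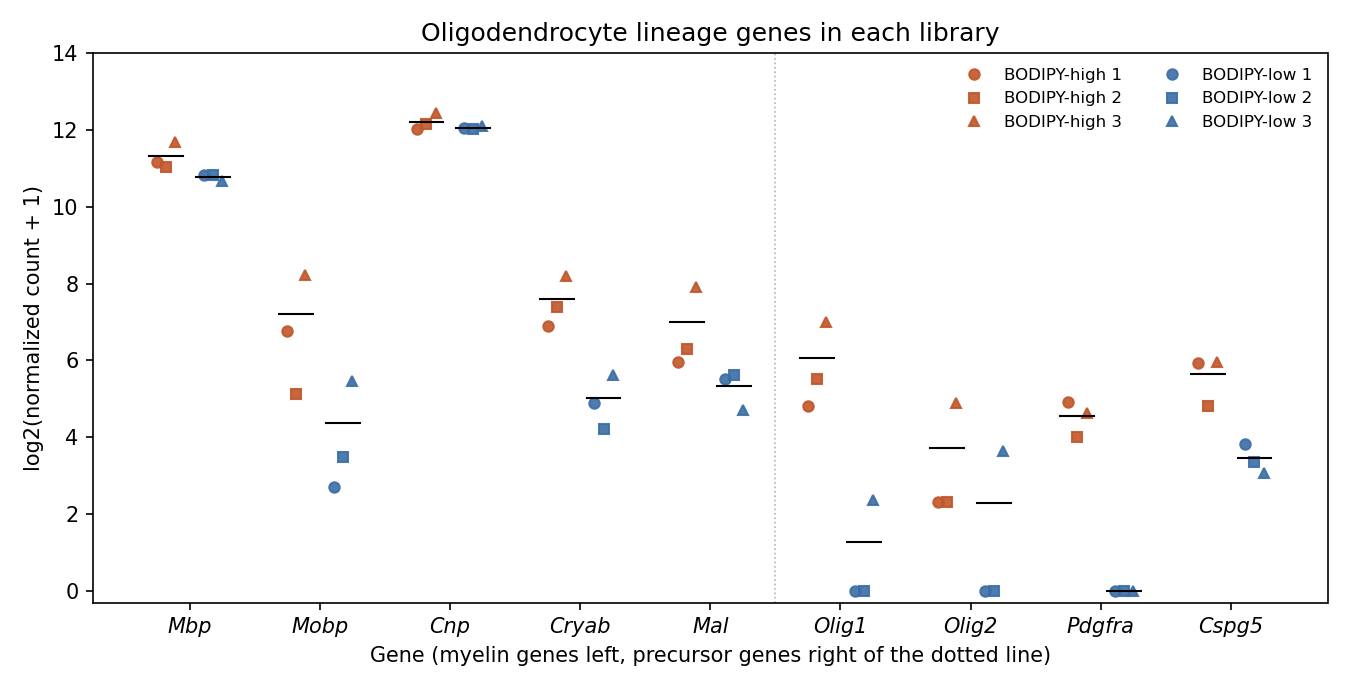
Normalized counts of the 9 genes in each library on a log2(value + 1) scale, with BODIPY-high libraries in orange to the left of BODIPY-low libraries in blue, symbols for library numbers 1 to 3 and a bar at the mean normalized count of 3 libraries. Cnp and Mbp lie at 1625 normalized counts or more in every library, while Pdgfra has 0 in all BODIPY-low libraries and 15.0 to 29.0 in BODIPY-high libraries.

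Among the structural genes of myelin, Cnp and Mbp were abundant in both gates. Cnp encodes a phosphodiesterase of the cytoplasmic channels of myelin (chromosome 11, 100574904 to 100591729, plus strand; coordinates throughout from GENCODE M21 on GRCm38, the build also called mm10). It had 4149, 4524 and 5578 normalized counts in BODIPY-high libraries 1, 2 and 3, against 4209, 4196 and 4366 in BODIPY-low libraries 1, 2 and 3. The gates overlapped, and the log2 change of 0.15 ± 0.12 (SE) did not pass (limma adjusted p = 0.783). BODIPY-low libraries were close to each other, with a mean of 4257 ± 94.9 (SD, n = 3), and the BODIPY-high mean was 4750 ± 741 (SD, n = 3).

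Mbp, which encodes the protein that holds the inner faces of the myelin membrane together (chromosome 18, 82475146 to 82585637, plus strand), had 2285, 2089 and 3266 normalized counts in BODIPY-high libraries 1, 2 and 3. In BODIPY-low libraries 1, 2 and 3 it had 1803, 1816 and 1625. All BODIPY-high values lay above all BODIPY-low values, and the ratio of means was 1.46, but the log2 change of 0.52 ± 0.16 (SE) did not pass (limma adjusted p = 0.239). Within pairs of libraries of the same number the ratio was 1.27, 1.15 and 2.01.

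Cnp and Mbp together made up 91.4 to 96.0% of the summed myelin genes in BODIPY-high libraries and 98.1 to 98.7% in BODIPY-low libraries. The sum of the 5 myelin genes therefore moved little, with 6723 to 9676 normalized counts in BODIPY-high libraries and 6089 to 6108 in BODIPY-low libraries, a ratio of means of 1.27. Without these 2 genes, a choice made after their values were seen, the sum was 288, 277 and 832 in BODIPY-high libraries 1, 2 and 3 and 79.0, 76.3 and 117 in BODIPY-low libraries, a ratio of 5.14.

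Mobp encodes a small basic protein of compact myelin (chromosome 9, 120149707 to 120181484, plus strand). It had 108, 33.9 and 299 normalized counts in BODIPY-high libraries 1, 2 and 3, against 5.49, 10.3 and 43.2 in BODIPY-low libraries 1, 2 and 3. The groups overlapped, since BODIPY-low library 3 held more than BODIPY-high library 2, yet each BODIPY-high library lay above the BODIPY-low library of its number, by 19.7, 3.29 and 6.92-fold. The log2 change was 2.82 ± 0.90 (SE; limma adjusted p = 0.243), and with the replicate number as a block Mobp passed (limma adjusted p = 0.0119). The ratio of means over all libraries was 7.48. It was 3.61 when BODIPY-high library 3 was left out and 18.6 when BODIPY-low library 3 was left out.

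The promoter windows of Mobp and Cnp are shown because their ratios of means between the gates were 7.48 and 1.12. Neither gene passed limma, and this difference between the 2 genes was not tested. The window of Pdgfra is shown as that of the precursor gene with reads in the BODIPY-high gate alone. The windows are from RefSeq on GRCm38.p6 and run from 250 bases before to 50 bases after a transcript start, 5′ to 3′ on the plus strand of chr9:120149492-120149791, chr11:100574689-100574988 and chr5:75152001-75152300. Capitals mark the letters searched on both strands: the core ACAAAG, which proteins with an HMG box such as the Sox factors bind, a shorter core of that kind, ACAAT, and 2 E-boxes of the kind that helix-loop-helix proteins bind, namely CAGCTG as well as the related CAGATG. No motif in capitals overlaps another here.
Mobp: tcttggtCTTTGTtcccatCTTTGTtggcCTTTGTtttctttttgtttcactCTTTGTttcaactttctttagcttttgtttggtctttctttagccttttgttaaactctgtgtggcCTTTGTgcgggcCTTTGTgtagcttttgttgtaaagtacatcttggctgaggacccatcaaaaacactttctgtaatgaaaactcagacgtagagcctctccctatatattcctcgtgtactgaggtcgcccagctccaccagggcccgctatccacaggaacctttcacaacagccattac
Cnp: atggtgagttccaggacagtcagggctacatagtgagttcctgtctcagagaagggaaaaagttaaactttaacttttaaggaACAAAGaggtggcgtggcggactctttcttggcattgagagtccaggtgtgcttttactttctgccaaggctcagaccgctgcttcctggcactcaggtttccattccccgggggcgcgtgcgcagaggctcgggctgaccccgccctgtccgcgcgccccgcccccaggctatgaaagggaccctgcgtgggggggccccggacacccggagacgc
Pdgfra: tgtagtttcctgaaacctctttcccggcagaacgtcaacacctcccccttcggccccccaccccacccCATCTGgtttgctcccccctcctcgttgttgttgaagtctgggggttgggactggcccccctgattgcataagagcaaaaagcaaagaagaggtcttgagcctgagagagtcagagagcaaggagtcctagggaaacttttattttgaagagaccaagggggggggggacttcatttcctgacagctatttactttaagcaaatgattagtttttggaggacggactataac
The Mobp window holds 6 copies of ACAAAG, all on the strand opposite to the one shown, where they read as CTTTGT, and 0 of the other letters. Of 32851 windows in the RefSeq table, 18.7% hold at least 1 copy, and the Mobp window was the 1 window with 6 or more. The Cnp window holds 1 copy of ACAAAG and none of the rest, and the Pdgfra window holds 1 copy of CAGATG, in the strand shown as CATCTG, which 17.2% of windows hold. CAGCTG was in 16.3% of windows and ACAAT in 31.0%. Of the 9 genes, 5 had a window in that table. These matches describe letters only.

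Cryab encodes a small heat shock protein that is abundant in oligodendrocytes and also read in astrocytes (chromosome 9, 50751325 to 50756636, plus strand). It had 119, 166 and 292 normalized counts in BODIPY-high libraries 1, 2 and 3, against 28.5, 17.5 and 48.4 in BODIPY-low libraries 1, 2 and 3. The lowest BODIPY-high library lay above the highest BODIPY-low library, and the log2 change was 2.59 ± 0.48 (SE; limma adjusted p = 0.0304). The ratio of means was 6.11. Cryab passed without BODIPY-high library 1 or BODIPY-low library 3 and did not pass without any 1 of the other 4 libraries (limma adjusted p of 0.0874 to 0.147). Its exons share 252 of 1291 bases (19.5%) with those of Hspb2 on the other strand, and the library kits do not keep the strand, so reads there cannot be assigned to 1 gene.

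Mal, a membrane protein of lipid-rich domains in myelin and in epithelia (chromosome 2, 127633226 to 127656695, minus strand), had 61.1, 77.8 and 241 normalized counts in BODIPY-high libraries 1, 2 and 3. In BODIPY-low libraries 1, 2 and 3 it had 45.0, 48.5 and 25.3. The gates did not overlap, but BODIPY-high library 3 stood far above the other 2, and the log2 change of 1.44 ± 0.55 (SE) did not pass (limma adjusted p = 0.382). The ratio of means was 3.20, and 1.75 without BODIPY-high library 3.

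The precursor genes were low in the BODIPY-low gate, at 13.2 normalized counts or less in every library. Pdgfra, the receptor for platelet-derived growth factor that marks precursors and is also read in fibroblasts (chromosome 5, 75152292 to 75198215, plus strand), had 29.0, 15.0 and 23.9 normalized counts in BODIPY-high libraries 1, 2 and 3. These were 29, 15 and 26 reads, against 0 reads in each BODIPY-low library. With the floor of 3 reads set over the BODIPY-low group, Pdgfra was at least 21.4-fold higher. The exact 95% lower limit of its read ratio, which also takes in the counting error of the BODIPY-high reads, was 16.9. Pdgfra passed the test (limma adjusted p = 0.0273, edgeR 0.0384). It entered the test through the BODIPY-high gate alone, which fixed its direction. Pdgfra was the only gene of the 9 that was not highest in BODIPY-high library 3.

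Olig1, a helix-loop-helix factor of the lineage (chromosome 16, 91269772 to 91271933, plus strand), had 27, 45 and 138 reads in BODIPY-high libraries 1, 2 and 3, against 0, 0 and 4 reads in BODIPY-low libraries 1, 2 and 3. As normalized counts these were 27.0, 44.9 and 127 in BODIPY-high libraries, against 0, 0 and 4.21 in BODIPY-low libraries. The log2 change was 4.98 ± 0.92 (SE; limma adjusted p = 0.0304), while edgeR gave an adjusted p of 0.0563. Olig1 too entered the test through the BODIPY-high gate alone, so its direction was fixed by the filter. The ratio of reads, corrected for library scaling, was 48.1 with an exact 95% counting interval of 18.5 to 178. The ratio of means was 47.2, and 25.6 without BODIPY-high library 3, 31.5 without BODIPY-low library 1 or 2, and without a finite value when BODIPY-low library 3 was left out.

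Olig2, the related factor needed for the lineage to form (chromosome 16, 91225457 to 91228677, plus strand), lies 41094 bases from Olig1. It had 4, 4 and 31 reads in BODIPY-high libraries 1, 2 and 3, against 0, 0 and 11 in BODIPY-low libraries 1, 2 and 3. The gates overlapped, and the ratio of means of 3.15 was 1.04 without BODIPY-high library 3. Olig2 reached 10 normalized counts in 2 libraries, both numbered 3, and so was not tested. Without the filter its log2 change was 1.96 and its limma adjusted p 0.625.

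Cspg5, a chondroitin sulfate proteoglycan that precursors share with neurons and astrocytes (chromosome 9, 110243783 to 110262576, plus strand), had 60.1, 26.9 and 61.6 normalized counts in BODIPY-high libraries 1, 2 and 3. In BODIPY-low libraries 1, 2 and 3 it had 13.2, 9.28 and 7.37. The gates did not overlap, and the ratio of means was 4.98, but the log2 change of 2.15 ± 0.54 (SE) did not pass (limma adjusted p = 0.11). DESeq2 on the recovered reads called it (adjusted p = 0.0312), and the replicate block did not (limma adjusted p = 0.0527).

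Set against the myelin genes, the precursor genes had the larger ratio between the gates in sum, and the sum's ratio was close to the same in all 3 library pairs. No test was made of this difference, and it depends on how the genes are weighted. The median of the genes' own ratios was 4.98 over the 3 precursor genes with reads in the BODIPY-low gate, or 13.2 with Pdgfra at its bound, and 3.20 over the 5 myelin genes. In the wider lists described further on it was lower for precursor genes, at 3.19, than for myelin genes, at 6.53, over genes with reads in the BODIPY-low gate. The sum of the 4 precursor genes was 120, 90.7 and 241 normalized counts in BODIPY-high libraries 1, 2 and 3, against 13.2, 9.28 and 23.2 in BODIPY-low libraries 1, 2 and 3. Within pairs the ratio of the precursor sum was 9.12, 9.78 and 10.4, that of the 5 myelin genes 1.10, 1.13 and 1.58, and that of the myelin genes without Cnp and Mbp 3.65, 3.63 and 7.12. For 1 normalized count of precursor genes, BODIPY-high libraries 1, 2 and 3 held 56.0, 75.9 and 40.2 of myelin genes, and BODIPY-low libraries 463, 656 and 264. Without Cnp and Mbp these values were 2.40, 3.05 and 3.45 in BODIPY-high libraries and 6.00, 8.22 and 5.05 in BODIPY-low libraries. The BODIPY-low precursor sums rest on 12, 9 and 22 reads, and not on the same genes. All were Cspg5 reads in libraries 1 and 2, while library 3 had 11 of Olig2, 7 of Cspg5 and 4 of Olig1. The ratio of Cspg5 alone was 4.56, 2.90 and 8.36 in pairs 1, 2 and 3, so the steady ratio of the sum was not shared by its genes.

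The 3 calls depended on the libraries. Olig1 and Pdgfra passed without BODIPY-low library 3 and did not pass without any 1 of the other 5 (limma adjusted p of 0.0541 to 0.157 for Olig1 and 0.0593 to 0.143 for Pdgfra), as the plot with 1 library left out shows. Without both libraries numbered 3, an alternative chosen after seeing the data, none of the 9 passed limma (Olig1 adjusted p = 0.0781, Cryab 0.0855 and Pdgfra 0.152).

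**Figure D2:**
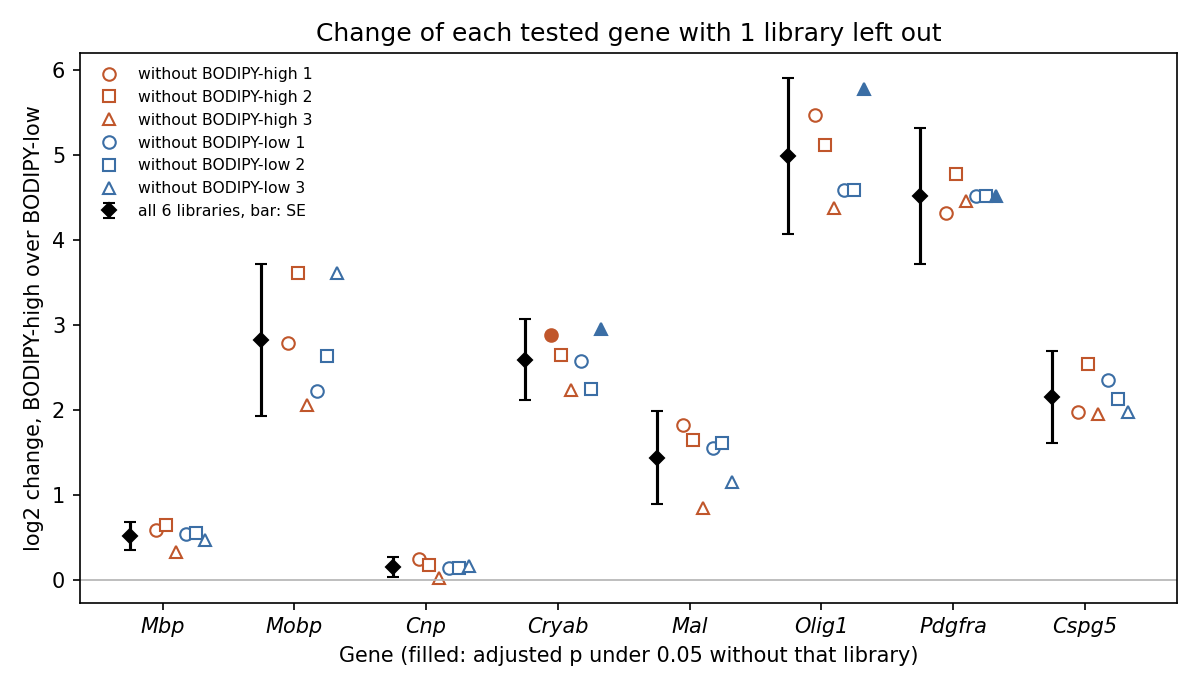
Log2 change of the 8 tested genes, BODIPY-high over BODIPY-low, with all 6 libraries (black diamonds, bars are the SE) and with each library left out in turn (orange for BODIPY-high, blue for BODIPY-low). Filled symbols have a limma adjusted p under 0.05. Every value is above 0, and among the fits with 1 library left out the 4 filled symbols are Cryab without BODIPY-high library 1 and Cryab, Olig1 and Pdgfra without BODIPY-low library 3.

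Per length, the order of the levels was alike in both gates at the top. In normalized counts per kilobase of exon, BODIPY-high means were 2015 for Cnp, 314 for Mbp and 149 for Cryab, with no overlap between neighbours. Mal, Mobp and Olig1 followed at 45.6, 31.3 and 30.7 and overlapped each other in turn. Cspg5, Olig2 and Pdgfra were lowest at 5.02, 4.81 and 2.58, and their ranges overlapped. In BODIPY-low libraries Cnp had 1806 and Mbp 215 per kilobase, and the other 7 ran from 24.4 for Cryab to 0 for Pdgfra with every neighbouring pair overlapping. The difference between gates, BODIPY-high minus BODIPY-low, was 209 per kilobase for Cnp, 125 for Cryab, 98.3 for Mbp, 31.3 for Mal, 30.0 for Olig1 and 27.2 for Mobp, where the SD of Cnp over BODIPY-high libraries was 314.

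Genes beyond the 9 were taken from a list of 30 further myelin and oligodendrocyte genes. Of these, 16 were tested, and 4 rose and 0 fell with limma, where 2.03% of all genes tested were called higher. The median log2 change was 1.51, against -0.0043 over all genes tested. At an unadjusted p under 0.05, 8 were higher and 1 lower, while edgeR called 3 higher (1.74% of all genes) and 0 lower and DESeq2 6 higher (3.63% of all genes). Of the 16, Tmem88b and Bcas1 had no BODIPY-low library at 10 normalized counts and entered the test through the BODIPY-high gate, so their direction was fixed by the filter.

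The carbonic anhydrase gene Car2, read in oligodendrocytes and in choroid plexus, averaged 771 ± 241 normalized counts in BODIPY-high libraries and 52.8 ± 36.6 in BODIPY-low libraries (SD, n = 3 each; limma adjusted p = 0.0142). Plekhb1 averaged 160 ± 87.5 in BODIPY-high libraries and 33.5 ± 4.07 in BODIPY-low libraries (SD, n = 3 each; limma adjusted p = 0.0415). Tmem88b had 169 reads in BODIPY-high libraries and 2 in BODIPY-low libraries, a ratio of 77.4 with an exact 95% counting interval of 21.1 to 645 (limma adjusted p = 0.0407). Tspan2, a tetraspanin of myelin, did not pass, at 102 ± 83.7 and 20.9 ± 2.05 normalized counts in BODIPY-high and BODIPY-low libraries (SD, n = 3 each; limma adjusted p = 0.233). Without BODIPY-high library 3 the ratios of means of Tmem88b, Plekhb1 and Tspan2 were 29.9, 3.27 and 2.61 in place of 75.4, 4.77 and 4.87. That of Tmem88b was 50.3 without BODIPY-low library 1 or 2 and had no finite value without BODIPY-low library 3. Car2 passed without BODIPY-high library 1 or any 1 BODIPY-low library. Tmem88b passed only without BODIPY-low library 3, and Plekhb1 did not pass when any 1 library was left out (limma adjusted p up to 0.204 for these 3 genes).

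High levels in both gates were not limited to Cnp and Mbp. Of the 30 genes, 5 (Mag, Trf, Qdpr, Sirt2 and Evi2a, named after their values were seen) had more than 1000 normalized counts in every library, and none of the 5 passed limma. Their gates overlapped for Mag, Trf and Qdpr, while all BODIPY-high values lay above all BODIPY-low values for Sirt2 (ratio of means 1.20) and below them for Evi2a (0.866). The other 25 stayed under 150 in every BODIPY-low library. Mag, a glycoprotein of the myelin face next to the axon, had 1071, 1217 and 1486 normalized counts in BODIPY-high libraries 1, 2 and 3, against 1163, 1066 and 1072 in BODIPY-low libraries 1, 2 and 3. Per kilobase of exon, Mag averaged 516 normalized counts in BODIPY-high libraries and 451 in BODIPY-low libraries.

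A list of 20 further precursor genes gave 6 tested, of which 0 passed limma (3 higher at an unadjusted p under 0.05, 0 with edgeR, 1 with DESeq2). Over all genes tested, 2.03% were called higher with limma, 1.74% with edgeR and 3.63% with DESeq2, so few calls could be looked for among 6 genes. The median log2 change of the 6 was 1.67, but Sox10 and Ptprz1 entered the test through the BODIPY-high gate alone, which fixed their direction. Ptprz1, a receptor phosphatase of precursors and astrocytes, had 101 reads in BODIPY-high libraries and 4 in BODIPY-low libraries (limma adjusted p = 0.0658). With the library number as a block it was called (limma adjusted p = 0.0219). Sox10, the Sox factor of the whole lineage, had 85 reads in BODIPY-high libraries and 6 in BODIPY-low libraries (limma adjusted p = 0.235). The brain proteoglycan gene Bcan had 25, 35 and 154 reads in BODIPY-high libraries 1, 2 and 3, against 4, 14 and 22 reads in BODIPY-low libraries 1, 2 and 3 (limma adjusted p = 0.4). The proteoglycan gene Cspg4, which encodes the NG2 antigen of precursors, had 18, 7 and 108 reads in BODIPY-high libraries 1, 2 and 3, against 27, 4 and 5 reads in BODIPY-low libraries 1, 2 and 3, with the gates overlapping (limma adjusted p = 0.78). Xylt1, an enzyme that starts proteoglycan sugar chains, averaged 60.6 ± 12.3 normalized counts in BODIPY-high libraries and 42.9 ± 11.2 in BODIPY-low libraries (SD, n = 3 each; limma adjusted p = 0.773). Nkx2-2, Cacng4, Pcdh15 and Susd5 were not analysed here.

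**Figure D3:**
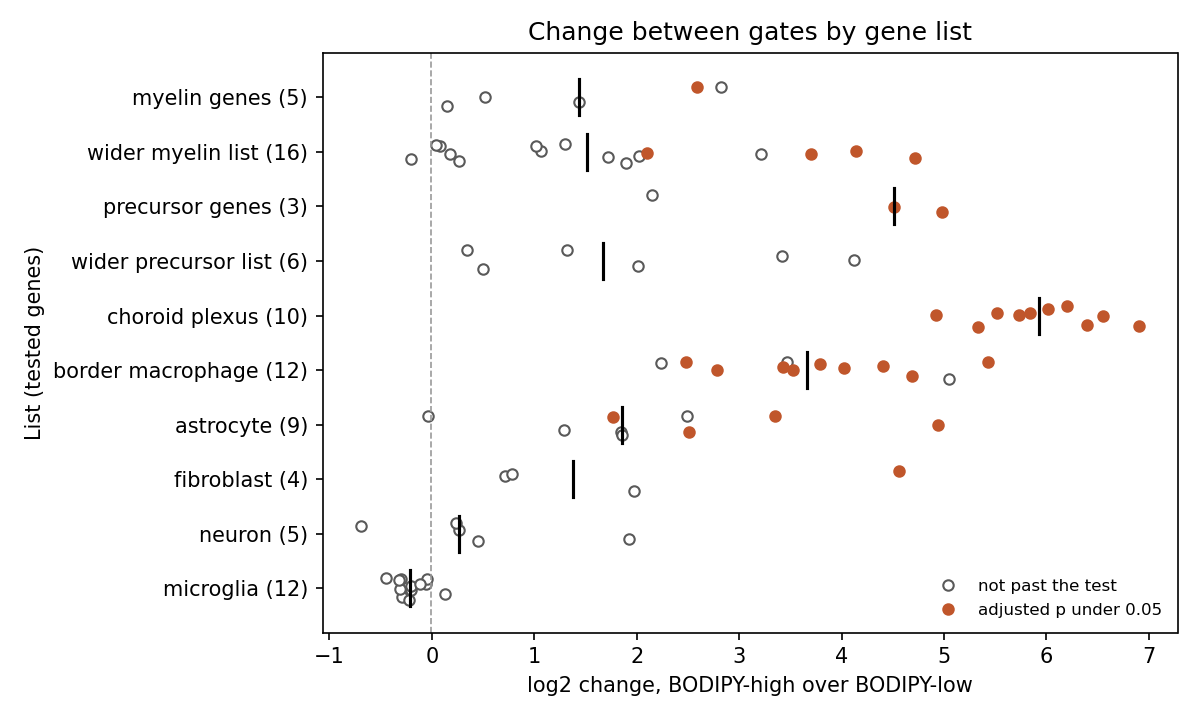
Log2 change, BODIPY-high over BODIPY-low, of each tested gene by list, with the number of tested genes in brackets. Filled points have a limma adjusted p under 0.05, black bars are list medians and the dashed line is the median of all genes tested (-0.0043). The list medians are 1.44 for the 5 myelin genes, 4.51 for the 3 tested precursor genes, 5.93 for choroid plexus and 3.66 for border macrophage markers. Of the 3 tested precursor genes, Olig1 and Pdgfra entered the test through the BODIPY-high gate alone, which fixed their direction. Olig2 was not tested. The same filter fixed the direction of 2 choroid plexus markers.

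The lineage genes did not move alone. All 10 choroid plexus markers rose (median log2 change 5.93), and their sum ran from 40154 to 52833 normalized counts in BODIPY-high libraries and from 312 to 2347 in BODIPY-low libraries. Clic6 and Cldn2 had the smallest p of that list (limma adjusted p = 0.00218 for both). Of 12 markers of border-associated macrophages, 9 rose, among them Lyve1 and Colec12 (limma adjusted p = 0.00805 and 0.0136), and their sum ran from 23512 to 87857 in BODIPY-high libraries and from 2739 to 7992 in BODIPY-low libraries. Of 9 tested astrocyte markers 4 rose, with Clu and Aldoc of smallest p. Slc1a3, at 9230 normalized counts or more in every library, did not pass (log2 change -0.035, limma adjusted p = 0.965), nor did Gfap (limma adjusted p = 0.087). Of 4 tested fibroblast markers 1 rose (Igf2), and Col1a2 did not pass (limma adjusted p = 0.53). Of these calls, 2 choroid plexus markers (Cldn2 among them), 1 astrocyte marker and Igf2 entered the test through the BODIPY-high gate alone. Their direction was thus fixed by the filter. Of all genes tested, 2.03% were called higher. The fibroblast sum was 183 to 402 in BODIPY-high libraries and 52.7 to 131 in BODIPY-low libraries. Fibroblast markers differed from each other. Col1a1 and Col3a1 had 0 in every BODIPY-low library, and at most 9.20 and 10.1 in BODIPY-high libraries. Summed over BODIPY-high libraries, Col1a2 had 120 reads and Dcn 51, against 36 and 5 in BODIPY-low libraries. Slc6a13 went the other way, with 31 reads in BODIPY-high and 41 in BODIPY-low libraries. Of 5 tested neuron markers 0 passed limma (1 higher at an unadjusted p under 0.05, 0 with edgeR and 0 with DESeq2), with Snap25 and Slc17a7 of smallest p, and the sum was 138 to 192 in BODIPY-high libraries and 89.5 to 139 in BODIPY-low libraries. The part of these cell types in the values of the lineage genes was not tested.

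BODIPY-high library 3 stood apart for many of the lineage genes, and BODIPY-low library 3 for some of them. Of the 9 genes, 8 were highest in BODIPY-high library 3, against 22.4% of all genes tested. In that library the value was 4.21 times the mean of the other 2 BODIPY-high libraries for Mobp, 3.47 times for Mal, 3.53 times for Olig1, 2.05 times for Cryab, 1.49 times for Mbp, 1.42 times for Cspg5, 1.29 times for Cnp and 1.09 times for Pdgfra. For Olig2 it was 7.13 times, on 31 reads against 4 and 4. The same ratio was 3.22 for the summed border macrophage markers, 1.13 for the choroid plexus markers and 0.763 for the microglial identity genes. Among BODIPY-low libraries, number 3 held the most reads of Mobp, Cryab, Olig1 and Olig2, and the least Mbp, Mal and Cspg5 on the normalized scale.

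**Figure D4:**
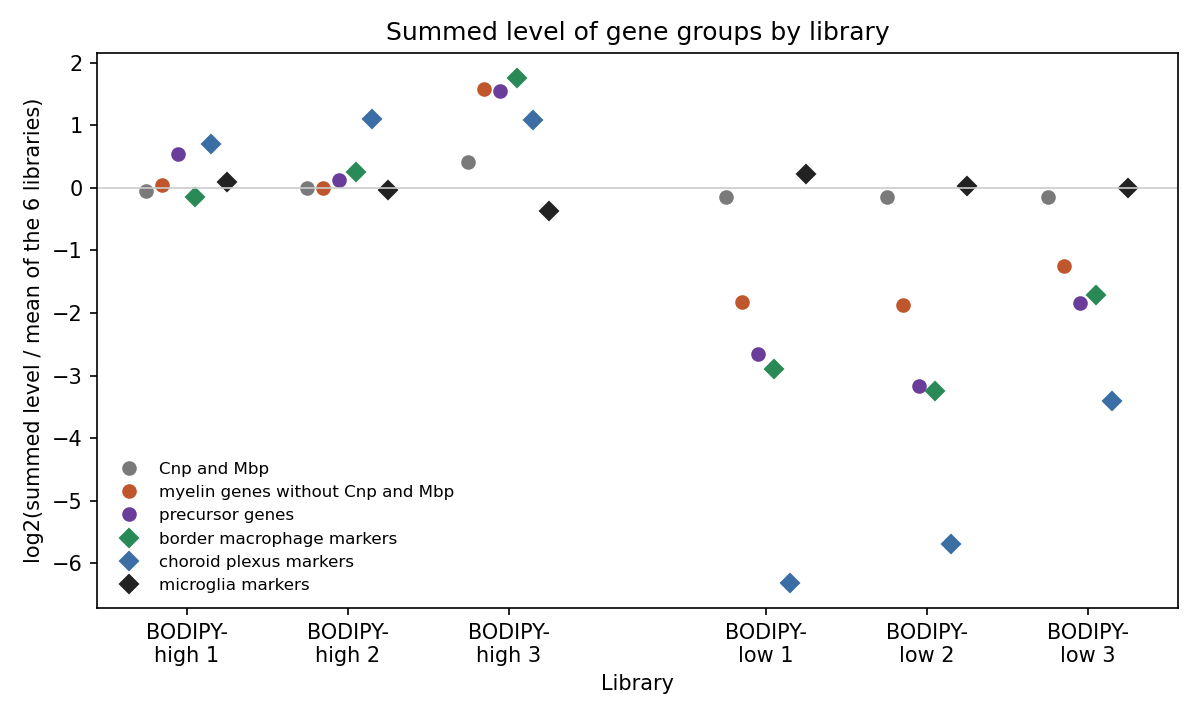
Summed normalized counts of gene groups in each library, as log2 of the ratio to the mean of the 6 libraries. Circles are lineage genes and diamonds are markers of other cell types. The precursor genes, the myelin genes without Cnp and Mbp and the border macrophage markers are each below 0 in the 3 BODIPY-low libraries and highest in BODIPY-high library 3, and summed Cnp and Mbp lie near 0 in all but that library.

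The genes whose profile lay nearest to a lineage gene were found by the root mean square difference of log2(value + 1), centred on each gene's mean over the 6 libraries, among genes with a mean of at least 50 normalized counts. For Olig1 these were Cd163, a scavenger receptor on the border macrophage list (0.19), Lyve1 of the same list (0.39), Cd209f (0.41), the heme synthesis gene Alas2 (0.42) and Myof (0.49), out of 10462 genes. Cd163 had 1442, 2172 and 6588 normalized counts in BODIPY-high libraries 1, 2 and 3, against 59.2, 52.6 and 371 in BODIPY-low libraries. For Mobp they were Mfsd6 (0.47), the matrix protease gene Mmp9 (0.58), the integrin gene Itga4 (0.64), Vav3 (0.65) and Serpinb8 (0.65), out of 10461. None of the 9 genes was among these, but Olig1, Olig2, Pdgfra and Cspg5 averaged under 50 normalized counts and could not have been listed. By the same measure with no minimum mean, the nearest of the 9 to Mobp was Olig2 at 0.81, followed by Cryab at 0.96, and the nearest to Olig1 was Pdgfra at 1.10. Olig1 had 0, 0 and 4 reads in BODIPY-low libraries 1, 2 and 3, so its distances depend on the 1 added to each value. Its log2 change was 4.98 with 1 added, 5.68 with 0.5 and 3.28 with 5. Distances with other added values were not taken. The measure is over 6 libraries and describes them only.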

How the data were processed

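Hippocampal microglia sorted into 3 BODIPY-high and 3 BODIPY-low samples were sequenced with the Smart-seq v4 and Nextera XT kits. Read quality was assessed with FastQC 0.11.4, and reads were mapped to mm10 and counted per gene by the authors with STAR 2.5.3a, followed by DESeq2, according to the design text. The submitters' processing notes list mm9 as well as mm10. The annotation and strand setting of the counting are not stated in these sources. The deposited file holds 1 normalized signal value per gene and library, a gene count divided by a size factor. All values of each library (100%) were whole multiples of 1 step within 0.05 of a read, which gave back 34899413 to 39220494 reads. No libraries of a gate agreed within sampling noise (chi-square per degree of freedom of at least 29.1).

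With the gate as the only term, log2(value + 1) was compared by limma-trend (two-sided, limma 3.58.1, R 4.3.3) over the 12767 genes with at least 10 normalized counts in at least 3 libraries. The pseudocount makes fold changes of low genes too small. P-values were adjusted by Benjamini-Hochberg across those genes, and edgeR 4.0.16 (quasi-likelihood) and DESeq2 1.42.0 on the recovered reads were alternatives, as were other pseudocounts, filters and scaling. The code was tested on simulated data. Libraries of the same number went together across the gates. Deviations from gate means correlated at 0.354, 0.244 and 0.363 for numbers 1, 2 and 3, and at -0.255 to -0.0951 for other combinations. Deviations within a gate sum to 0 for each gene, so the negative values are not separate evidence of pairing. Labels do not say that samples of a gate are separate pools, so p-values reflect spread among these samples, which may be technical. Genes of the lists named were the 9 genes, the 5 of smallest p of each wider list, up to 2 of each other marker list and 5 nearest profiles each for Mobp and Olig1. Some genes that this rule names are not reported here. Members and lists were chosen with earlier results of these data known. Read ratios carry exact 95% binomial (Clopper-Pearson) intervals. Exon lengths are the union of exons of the GENCODE M21 basic set.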

Additional observations from a re-analysis of the deposited data

How the results depend on the processing

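Each of the 8 tested genes kept its positive log2 change under every alternative that gave it a value (116 values), and the median of all genes stayed within 0.1 of 0 under each scaling. Of the 259 higher and 3 lower genes, the replicate block gave 558 and 59, a filter of 50 normalized counts 131 and 1, DESeq2 464 and 32, and edgeR 1 lower. Leaving out 1 library gave 15 to 271 higher and 0 to 2 lower genes, with 1050 to 1357 genes at an unadjusted p under 0.05 in limma, and leaving out both libraries numbered 3 gave 117 and 0. Myelin genes called were 1, but 2 with the replicate block or DESeq2, 0 without both libraries numbered 3, and 0 to 1 with 1 library left out. Precursor genes called were 2, but 1 with edgeR, 0 without both libraries numbered 3, and 0 to 2 with 1 left out, and with the filter of 50 no precursor gene was tested. The wider myelin list had 4 called, 1 with that filter, 2 without both libraries numbered 3 and 0 to 3 with 1 left out. The wider precursor list had 0 called, 1 with the replicate block, with no filter or with DESeq2, and 0 to 1 with 1 left out. The wider myelin median of 1.51 was 0.23 with the filter of 50 and 0.50 to 1.91 with 1 library left out. The wider precursor median of 1.67 was 0.42 with that filter and 0.83 to 2.20 with 1 left out. The myelin sum ratio of 1.27 was 1.12 to 1.36 with 1 library left out, 3.20 as the median of the genes' own ratios and 5.14 without Cnp and Mbp, which hold most of the sum. The precursor sum ratio of 9.91 was 4.98 as that median and 6.93 to 13.4 with 1 library left out. Where no cause is given, the cause was not tested. The replicate block changed the call of Mobp and Ptprz1 among the lineage genes named, and no other. Precursor values rest on few reads. With 1 library left out, the 2 precursor calls were kept only when it was BODIPY-low library 3. The log2 change of Pdgfra stayed at 4.32 to 4.77 in these fits.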

Other observations

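Some lineage genes were read almost only in BODIPY-high library 3. The 14 genes of the wider myelin list that were too low to test had 101, 88 and 878 reads together in BODIPY-high libraries 1, 2 and 3, against 17, 11 and 43 in BODIPY-low libraries 1, 2 and 3. Of the 14, 13 reached 10 normalized counts in BODIPY-high library 3, 2 in BODIPY-high library 1, 4 in BODIPY-high library 2 and 0 in any BODIPY-low library. The 10 untested genes of the wider precursor list had 12, 27 and 358 reads in BODIPY-high libraries 1, 2 and 3, against 8, 32 and 11 in BODIPY-low libraries. Gpr17, a receptor of precursors that have begun to differentiate, chosen after its values were seen, had 0, 0 and 212 normalized counts in BODIPY-high libraries 1, 2 and 3, against 2.19, 0 and 0 in BODIPY-low libraries.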
